A study of Rattus norvegicus with 4 samples.

Results

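Transcripts of cholesterol synthesis and fatty acid metabolism were compared in rat testis between animals given an antibody against follicle-stimulating hormone (FSH) and animals given a control immunoglobulin. The set was a fixed list of 46 genes, taken as all probe sets whose annotation gives exactly 1 gene symbol on that list. Of the 46 genes, 43 had such a probe set, 84 probe sets in all among the 8799 on the array. Hmgcs1, Sc5d and Fads1 had none. By role, 16 genes belong to sterol synthesis, 8 to lipid synthesis, 11 to fatty acid oxidation and 11 to fatty acid release, binding and activation.

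The animals were male Sprague Dawley rats, an outbred strain, and neither group carried a genetic change. Each group was measured as 2 RNA samples on 2 Affymetrix arrays, so there were 4 arrays. One group received an anti-FSH antibody, raised in sheep according to the series design, for 4 days, and the other a sheep immunoglobulin for the same time. The labels disagree on age: the treatment text starts injections on day 18 and collects on day 22, the source names give day 18, the series design starts them on day 14, and the title of antibody array 2 names postnatal day 4 in place of a treatment. That array was grouped by its source name. The extraction text describes pools of about 20 ovaries per RNA sample, whereas each source name gives testis and 1 numbered animal, so the number of animals behind each array is not settled and the p-values below measure the spread between these RNA samples.

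Some markers of each main testis cell type were bright on all 4 arrays and others were dim. The Sertoli cell transcript Clu ranged from 6439.6 to 7459.2, the meiotic germ cell transcript Sycp3 from 574.2 to 922.3 and the Leydig cell transcript Cyp17a1 from 1361 to 1730.4. In the same lists Fshr stayed at 3.0 to 5.5 on L02842_at and at 67.9 to 114.0 on L02842_g_at, Hsd17b3 at 26.2 to 37.9, and the late germ cell transcripts Tnp2 and Odf1 at or below 3.6. Of the ovarian markers, Zp3 was at 2.8 to 4.7 and Cyp19a1 at 2.9 to 10.2, while Zp1 and Zp2 were at 37.5 to 103.8. The median intensity per array lay between 36.5 and 40.4. Intensities are linear values on a scale that the submitters had made common to the 4 arrays, and levels of different probe sets cannot be set against each other. Control array 2 had the highest summed intensity of the germ cell markers with a probe set (11 of 13 listed), 2403 against 1374 on control array 1 and 1774 and 1148 on the antibody arrays.

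Cells make cholesterol from acetyl-CoA through mevalonate, farnesyl diphosphate, squalene and lanosterol, and the genes of this route are under the control of SREBP transcription factors, which Insig1 holds back. Fatty acids are built in the cytosol by Acly, Acaca and Fasn, joined to glycerol 3-phosphate to form glycerides, and burned in mitochondria after entry through the carnitine palmitoyltransferases. In the testis, Leydig cells use cholesterol for steroids. Sertoli cells, the target of FSH, are known to take up lipid from degenerating germ cells and to oxidise fatty acids.

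Of the 43 genes, 40 had at least 1 probe set bright enough to be tested, meaning a mean value at or above the 40th percentile of all probe sets, and 69 of the 84 probe sets were tested. Gpd1 and Gpam had the lowest values after the antibody relative to the control, and Cpt1b and Acads the highest among those with an unadjusted p below 0.05. In the limma fit, adjusted by Benjamini-Hochberg, 0 of 69 member probe sets passed a threshold of 0.05, beside 0.267% of all 5252 tested probe sets. At an unadjusted p below 0.05 there were 5 of 69 (7.25%), beside 8.11% of all tested, 2 higher (3.98% of all tested) and 3 lower (4.13%). With a change of at least 1.5-fold as well, 3 of 69 remained (4.35%, beside 3.43%). The members' share was thus near that of all probe sets by each rule. Log2 changes are the antibody mean minus the control mean ± SE, taken after adding 16 to each intensity, so that the change of a dim probe set is understated.

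The members were measured about as precisely as all tested probe sets. For 64 of the 69 (92.8%, beside 92.7% of all tested) the 95% interval of the change lay within 2-fold in either direction, and for 36 (52.2%, beside 46.4%) within 1.5-fold. The median distance from the estimate to either bound was 0.42 on the log2 scale, or 1.34-fold, beside 0.43 over all tested. Changes smaller than 1.2-fold were seen in 79.7% of the member probe sets and in 72.6% of all tested ones. Smaller differences than such a bound cannot be told from 0 with these 4 arrays.

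**Figure D1:**
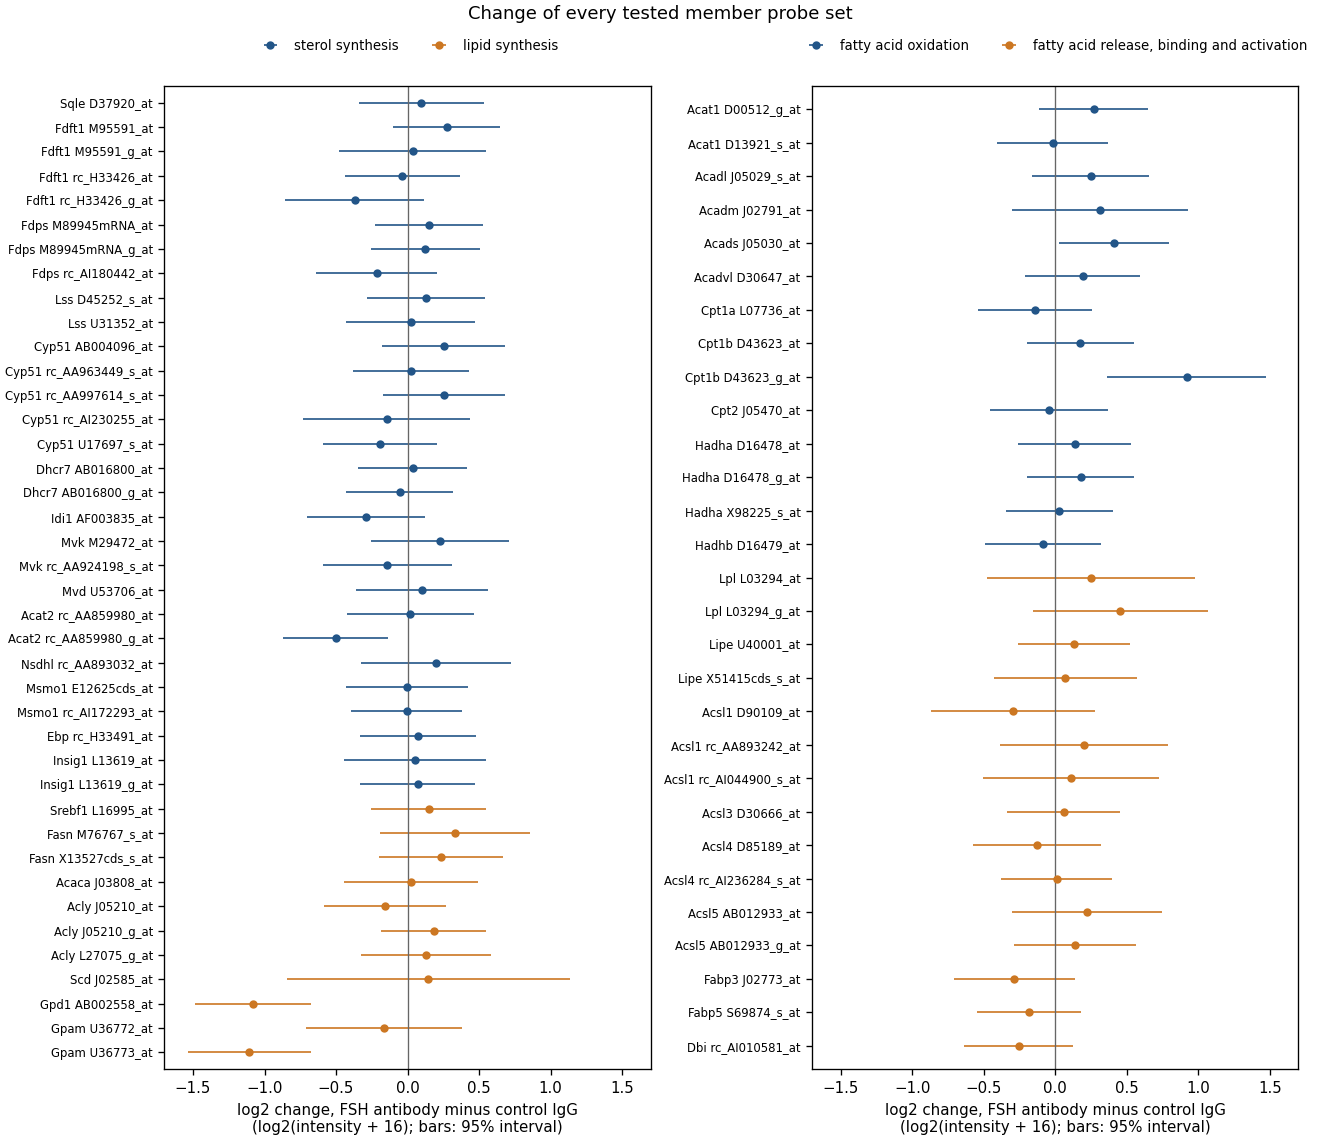
Log2 change of each of the 69 tested member probe sets, antibody minus control on the log2(intensity + 16) scale, with the 95% interval of the limma fit as a bar. Gpd1 AB002558_at and Gpam U36773_at stand lowest, at −1.08 and −1.11, and Cpt1b D43623_g_at highest, at 0.92, while most intervals cross 0.

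Lipid synthesis held both of the members with the most negative log2 changes, and both make glyceride precursors. Gpd1, the cytosolic enzyme that makes glycerol 3-phosphate, measured 113.9 and 105.9 in the controls, against 47.9 and 39.3 with the antibody. Neither antibody array reached the lower control array. The change was −1.08 ± 0.18, a level 2.12-fold higher in the controls on this scale, with an adjusted p of 0.0541 that lay just above the threshold. Gpam, the mitochondrial acyltransferase that puts the first fatty acid on glycerol 3-phosphate, was at 66.6 and 73.9 in the controls and at 24.0 and 24.1 after the antibody on probe set U36773_at. The groups again did not overlap, with −1.11 ± 0.19 and an adjusted p of 0.0585. In whole testis RNA, fewer cells of a type and less RNA per cell cannot be told apart.

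Other Gpam probe sets did not all show this difference. U36773_g_at, whose name shares that stem but which was too dim to be tested, had 21.2 and 22.7 in the controls and 4.1 and 10.3 after the antibody, also without overlap. U36772_at, the other tested probe set, had 37.0 and 21.8 against 21.3 and 26.7, which overlap (−0.17 ± 0.24, adjusted p = 0.904). Both probe sets with U36771 in the name stayed at or below 9.7 on all arrays. The annotation gives 1 source sequence for all 5 Gpam probe sets, and only those with U36773 in the name had lower values on both antibody arrays. Gpd2, the mitochondrial glycerol 3-phosphate dehydrogenase and not a member, gave −0.06 ± 0.17 on its tested probe set.

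Whether Gpd1 and Gpam U36773_at passed depended on the arrays in the limma fit and on the processing. With no filter the adjusted p was 0.227 and 0.264, with quantile normalization 0.115 for both, and with median centring 0.0731 for both. With antibody array 1 left out, Gpd1 passed at an adjusted p of 0.000331 and Gpam at 0.0026, and with antibody array 2 left out at 0.00865 and 0.00312. With control array 1 left out the values were 0.415 and 0.384, and with control array 2 left out 0.593 and 0.637. The log2 change of Gpd1 stayed between −1.19 and −0.98 in these 4 fits, and that of Gpam U36773_at between −1.17 and −1.04. With the filter at the 60th percentile Gpd1 passed (adjusted p = 0.0386), and Gpam U36773_at was too dim to enter. Gpd1, at the 63.0th percentile of mean brightness, entered that filter only through its control arrays, so this pass adds no support.

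**Figure D2:**
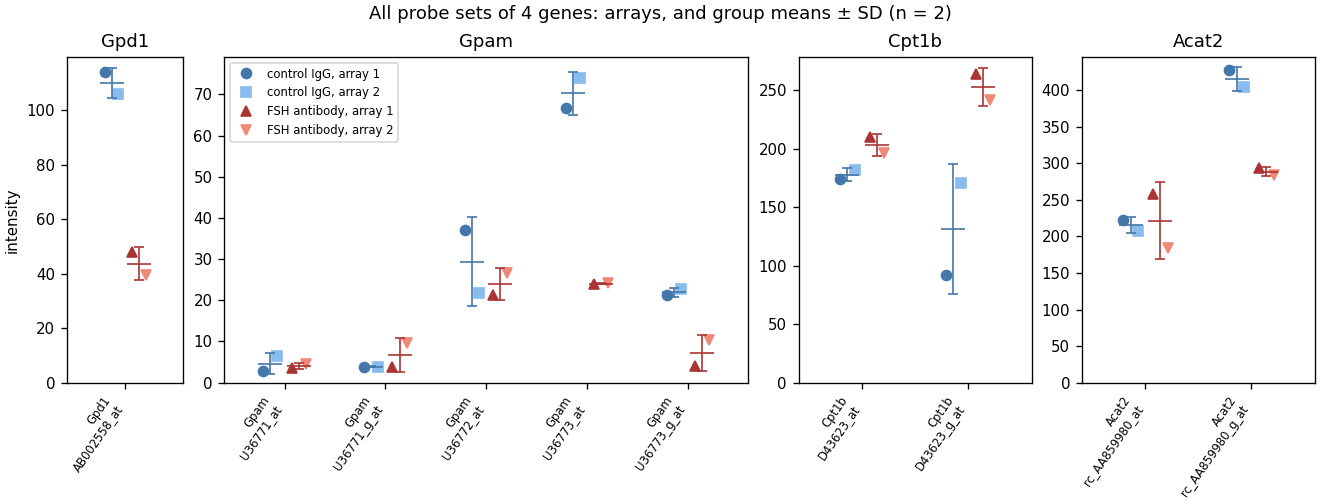
Intensity on each of the 4 arrays for every probe set of Gpd1, Gpam, Cpt1b and Acat2, on a linear axis from 0, with the group mean and SD (n = 2) as a dash and bar. Gpd1 and Gpam U36773_at lie lower on both antibody arrays, while the probe sets of Gpam, Cpt1b and Acat2 do not all show the same difference.

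The enzymes that build the fatty acid chain did not share that difference. Fasn, the fatty acid synthase, had 396.8 and 294.3 in the controls and 378.3 and 433.0 after the antibody on X13527cds_s_at, with overlap and a change of 0.23 ± 0.19 (adjusted p = 0.834). Its other probe set gave 358.9 and 213.6 against 375.2 and 333.3 (0.33 ± 0.23, adjusted p = 0.789). On both, control array 2 was the lowest. Acly, which makes cytosolic acetyl-CoA from citrate, had 936.9 and 802.9 against 996.6 and 975.2 on J05210_g_at (0.18 ± 0.16, adjusted p = 0.849), and −0.16 and 0.13 on its other tested probe sets. Acaca, the acetyl-CoA carboxylase, gave 0.02 ± 0.21, and Srebf1, the SREBP that drives lipid synthesis, 0.15 ± 0.18. The stearoyl-CoA desaturase Scd varied between control arrays more than between groups, at 65.3 and 10 against 43.0 and 27.8. Over the 7 tested genes of lipid synthesis, by the brightest probe set of each, the median change was 0.14 and the mean −0.21, of opposite sign, beside a median of 0.03 over all 3169 tested genes.

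Promoter sequence is shown for Gpam and Fdps. Gpam, on U36773_at, had the most negative log2 change of the tested members. Fdps is a sterol enzyme whose window holds the short form of the cyclic AMP site. The table of RefSeq promoters (build GRCr8) has no entry for Gpd1, and 32 of the members have one. Each line gives the 250 bases before the annotated start, with motif matches in capitals; Gpam lies on chr1:264175912-264176161 and Fdps on chr2:176804817-176805066, both on the minus strand.
Gpam: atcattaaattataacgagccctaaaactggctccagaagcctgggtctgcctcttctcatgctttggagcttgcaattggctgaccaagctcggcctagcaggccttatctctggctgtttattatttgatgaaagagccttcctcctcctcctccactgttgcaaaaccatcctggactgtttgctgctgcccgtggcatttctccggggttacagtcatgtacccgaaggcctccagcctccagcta
Fdps: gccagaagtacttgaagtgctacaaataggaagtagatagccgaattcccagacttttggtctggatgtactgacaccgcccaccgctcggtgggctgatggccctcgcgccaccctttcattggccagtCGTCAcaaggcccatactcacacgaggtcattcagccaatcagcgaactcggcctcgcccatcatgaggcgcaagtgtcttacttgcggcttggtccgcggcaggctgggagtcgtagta
Both strands were searched for the sterol response element TCACNCCAC, the E-box form of the SREBP site TCACNTGA, the cyclic AMP response element TGACGTCA and its short form TGACG, which lies within it. The short form was in the windows of 12 of the 32 members (37.5%) and in 18.2% of all 33469 promoters, noncoding genes included, whose base composition was not matched. Each of the other motifs was found in 1 member, Ehhadh, Fabp3 and Acadm in that order, and in 0.974%, 3.34% and 1.59% of all promoters. A match describes letters in a window and is not a measured site, and the Gpam window held none of these letters.

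Sterol synthesis gave small changes on nearly all probe sets. Of its 16 genes 14 were measured and all 14 were tested, on 29 probe sets. Of these, 18 (62.1%, beside 55.3% of all tested) had higher and 11 lower values after the antibody. Changes under 1.2-fold were seen on 25 of the 29 (86.2%, beside 72.6% of all tested). In 5 (17.2%) both antibody arrays lay above both control arrays, beside 21.9% of all tested probe sets, and in 2 (6.9%) both lay below, beside 15.5%. The median change over genes was 0.07, with a range from −0.50 to 0.28.

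Among the tested probe sets of the route, the largest difference was in an early step. Acat2, the cytosolic thiolase that joins acetyl-CoA units, had 427.6 and 404.3 in the controls and 293.3 and 284.3 after the antibody on rc_AA859980_g_at, with no overlap (−0.50 ± 0.16, adjusted p = 0.488). Its other probe set, named after the same sequence, had 223.1 and 207.5 against 258.5 and 184.2 (0.02 ± 0.20), so the probe sets disagree. The mevalonate kinase Mvk gave 0.23 and −0.14 on its probe sets and the decarboxylase Mvd 0.10 ± 0.21. Idi1, the isopentenyl diphosphate isomerase, had 142.2 and 143.9 against 130.0 and 99.9, both antibody arrays lying below the controls (−0.29 ± 0.18, adjusted p = 0.747).

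Fdps, which makes farnesyl diphosphate, had 511.8 and 458.1 in the controls and 567.3 and 513.8 after the antibody on its brightest probe set (0.15 ± 0.17, adjusted p = 0.872), and 0.13 and −0.22 on the others. For Fdft1, the squalene synthase, values on M95591_at were 269.7 and 273.2 against 315.8 and 348.7, without overlap (0.28 ± 0.17, adjusted p = 0.731). On rc_H33426_g_at they were 74.5 and 53.6 against 53.6 and 38.2, in the opposite direction (−0.37 ± 0.22, adjusted p = 0.717). M95591_g_at had 160.3 and 165.9 against 216.5 and 129.1, and rc_H33426_at 115.2 and 115.6 against 125.3 and 100.3, so on both the antibody arrays straddled the controls. Squalene epoxidase Sqle gave 0.09 ± 0.19, and lanosterol synthase Lss 0.13 ± 0.18 and 0.02 ± 0.20. The remaining Lss probe set, E12275cds_s_at, too dim to be tested, had 29.3 and 25.3 against 12.6 and 14.6, lower on both antibody arrays (log2 difference −0.55).

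The late steps after lanosterol were close to level. Cyp51, the lanosterol demethylase, had 69.8 and 66.0 against 72.8 and 96.7 on rc_AA997614_s_at (0.25 ± 0.19, adjusted p = 0.813), and its other probe sets gave 0.25, 0.02, −0.15 and −0.19. Msmo1, the sterol methyl oxidase, had 391.6 and 333.9 against 374.4 and 346.4, the antibody arrays lying between the controls. Nsdhl gave 0.20 ± 0.23, the sterol isomerase Ebp 0.07 ± 0.18, and the last reductase of the route, Dhcr7, 0.04 and −0.06 on its probe sets. Insig1, the SREBP inhibitor and itself a well-known target of SREBP, had 323.6 and 312.0 against 299.0 and 374.3 (0.07 ± 0.18), and 0.05 ± 0.22 on its other probe set. Of the 20 member genes with several tested probe sets, 10 had changes of both signs among them, 6 of these in sterol synthesis.

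**Figure D3:**
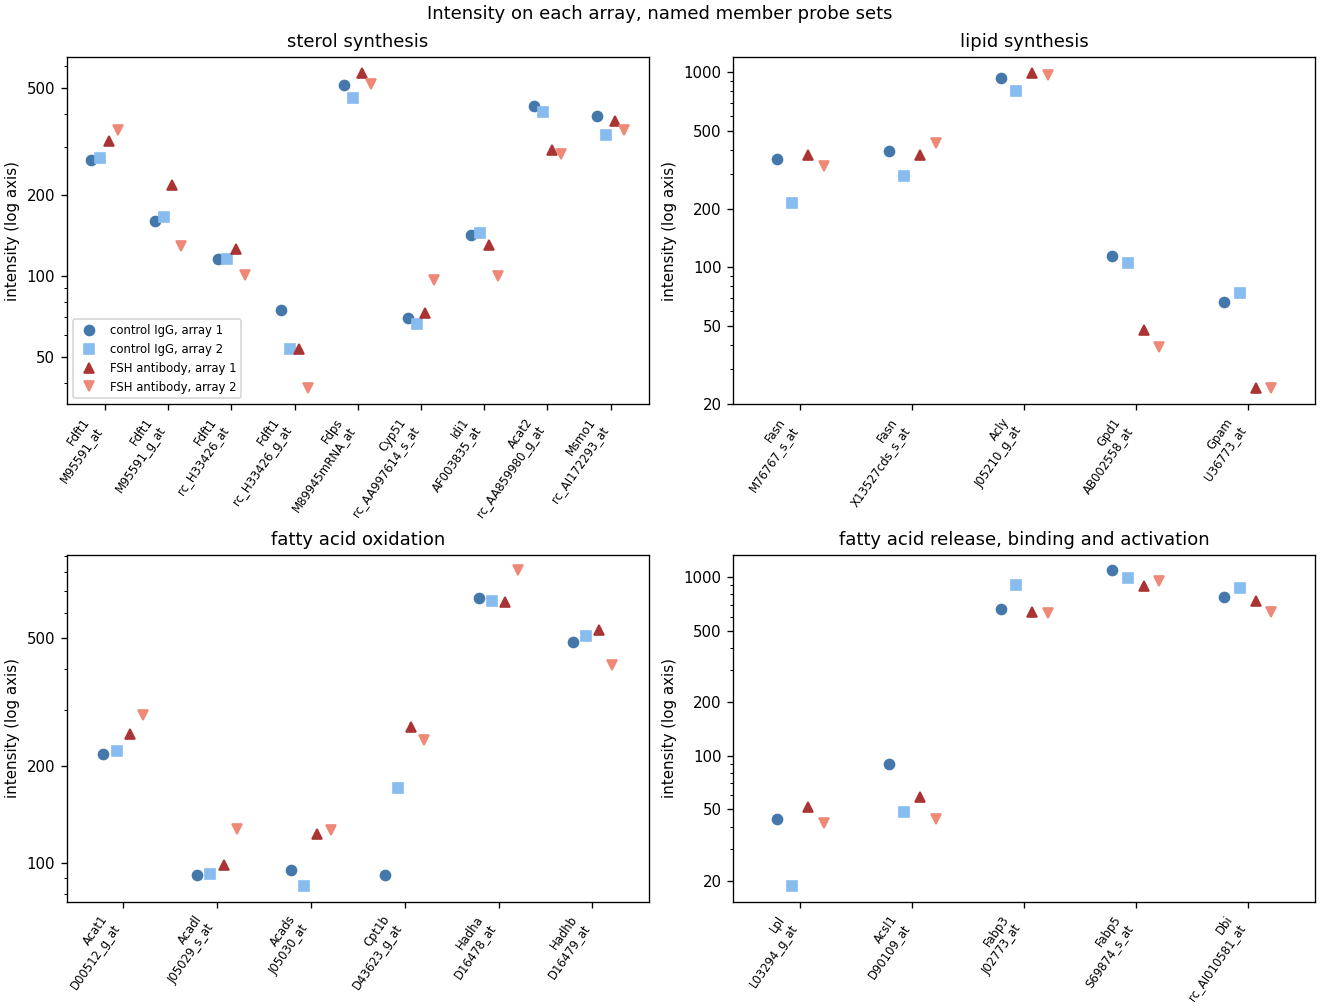
Intensity of the named member probe sets on each array, on log axes, in 4 panels by role. Circles and squares are the control arrays and triangles the antibody arrays; Gpd1, Gpam and Acat2 rc_AA859980_g_at lie lower, and Cpt1b and Acads higher, on both antibody arrays.

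In fatty acid oxidation, values after the antibody were more often higher than lower. All 11 genes had a probe set and 10 were tested, on 14 probe sets. On 7 of the 14 (50%, beside 21.9% of all tested) both antibody arrays lay above both control arrays, and on 0 (beside 15.5%) both lay below. Probe sets of 1 gene are not independent, and the 7 came from 6 genes. By the brightest probe set, 7 of the 10 genes (70.0%, beside 55.7% of all tested genes) had higher values. The median was 0.18, beside 0.03 over all tested genes. No member of this role passed over all probe sets (smallest adjusted p = 0.28).

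The carnitine shuttle carries fatty acids into mitochondria. Cpt1b, the muscle-type outer-membrane transferase, had 91.8 and 170.8 in the controls and 263.9 and 241.4 after the antibody on D43623_g_at, without overlap (0.92 ± 0.25, adjusted p = 0.28). The control arrays differed from each other more than the antibody arrays did, and the change was 0.52 without control array 1 and 1.32 without control array 2. With antibody array 1 or 2 left out the adjusted p was 0.0232 and 0.00716, and with control array 1 or 2 left out it was 0.654 and 0.529. The other probe set of the same sequence had 173.8 and 181.6 against 209.8 and 196.2, also without overlap (0.18 ± 0.17, adjusted p = 0.851). Cpt1a, the liver-type form, gave −0.14 ± 0.18 and the inner-membrane Cpt2 −0.04 ± 0.18.

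The acyl-CoA dehydrogenases take the first oxidation step, each for its own chain length. Acads, for short chains, had 95.3 and 85.1 in the controls and 122.8 and 127.0 after the antibody, without overlap (0.41 ± 0.17, adjusted p = 0.585). Acadl, for long chains, had 91.6 and 92.7 against 99.0 and 127.4 (0.25 ± 0.18, adjusted p = 0.807). Acadvl, for very long chains, had 52.8 and 50.9 against 62.4 and 60.6 (0.19 ± 0.18, adjusted p = 0.851). These 3 had no overlap between groups, whereas Acadm, for medium chains, had 80.1 and 37.4 against 63.3 and 84.0, with overlap (0.31 ± 0.27, adjusted p = 0.845).

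The trifunctional protein, which carries out the later steps, was nearer to level. Its alpha subunit Hadha had 667.1 and 651.2 in the controls and 649.0 and 812.1 after the antibody (0.14 ± 0.17, adjusted p = 0.892), with 0.18 and 0.03 on the other probe sets. Its beta subunit Hadhb had 485.7 and 506.8 against 529.7 and 411.9 (−0.08 ± 0.18, adjusted p = 0.94). For Acat1, the mitochondrial thiolase of ketone and isoleucine metabolism, D00512_g_at gave 218.2 and 223.4 against 251.2 and 288.7, without overlap (0.27 ± 0.17, adjusted p = 0.747), and its other tested probe set −0.02 ± 0.17. Ehhadh, the peroxisomal bifunctional enzyme, stayed at or below 6.5 on all arrays and was not tested.

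Genes of fatty acid release, binding and activation gave changes of both signs. Of 11 genes 9 were tested, on 15 probe sets, with a median over genes of −0.13. At an unadjusted p below 0.05 there were 0 probe sets, beside 8.11% of all tested. Of the fatty acid binding proteins, Fabp3 and Fabp5 had lower values on both antibody arrays. Fabp3, the heart-type protein, had 663.8 and 901.2 in the controls and 635.5 and 627.9 after the antibody (−0.29 ± 0.19, adjusted p = 0.763; −0.50 without control array 1 and −0.07 without control array 2), and Fabp5, the epidermal type, 1090.1 and 993.2 against 886.1 and 945.1 (−0.18 ± 0.16, adjusted p = 0.847). Dbi, the acyl-CoA binding protein, which also carries the name diazepam binding inhibitor, had 768.4 and 869.0 against 733.6 and 633.9 (−0.26 ± 0.17, adjusted p = 0.769). All 3 lacked overlap between groups, but the gap between the groups was smaller than that between the control arrays. These were the 3 of 15 probe sets (20.0%, beside 15.5% of all tested) on which both antibody arrays lay below. On 2 (13.3%, beside 21.9%), Lipe U40001_at and Acsl5 AB012933_g_at, both lay above. Fabp1, the liver type, stayed at or below 1.9.

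The acyl-CoA synthetases, which activate fatty acids, and the lipases did not separate by group on most probe sets. Acsl1 had 90.3 and 48.3 against 59.0 and 44.4 on D90109_at (−0.30 ± 0.25, adjusted p = 0.843), and 0.20 and 0.11 on its other tested probe sets. Acsl3 gave 0.06 ± 0.17, Acsl4 −0.13 and 0.01, and Acsl5 0.22 and 0.14. Lipe, the hormone-sensitive lipase, gave 0.13 ± 0.17 and 0.07 ± 0.22. Lpl, the lipoprotein lipase, had 44.1 and 18.7 against 51.8 and 41.9 on L03294_g_at (0.46 ± 0.27, adjusted p = 0.727), with control array 2 the lowest of the 4. The change was 0.85 without control array 1 and 0.06 without control array 2.

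Control array 2 was also the lowest for some other genes of fat stores. Fabp4, the adipocyte fatty acid binding protein, which was too dim to be tested, had 39.1 and 1.3 in the controls and 21.9 and 3.6 after the antibody. Scd and all 3 Lpl probe sets had their highest or second highest value on control array 1 and their lowest on control array 2, apart from the Scd probe set that stayed at or below 1.8. Of the adipocyte markers with a probe set (5 of 8 listed), the summed intensity was 712.3 and 789.2 in the controls and 642.1 and 823.3 after the antibody. Most of it came from Lep D49653_s_at, and without that probe set the sums were 107.5 and 130.8 against 122.4 and 101.6. Plin1, a lipid droplet coat protein on the adipocyte list, stayed at 1.8 to 4.3 on all arrays and was too dim to be tested. Cfd had 36.8 and 43.4 against 33.8 and 8.5, with antibody array 2 the lowest, and Pparg 37.7 and 48.9 against 35.1 and 41.0. By the brightest probe set of each of the 5 markers, control array 2 was the highest for 2, Cfd and Pparg, and the lowest for 0. Slc2a4 was higher on both antibody arrays on each probe set. It had 30.3 and 36.3 against 51.7 and 47.8 on D28561_s_at. On rc_AA799760_s_at it had 26.7 and 16.8 against 38.2 and 37.3, with control array 2 the lowest. The part of fat cells in the members' values was not tested.

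**Figure D4:**
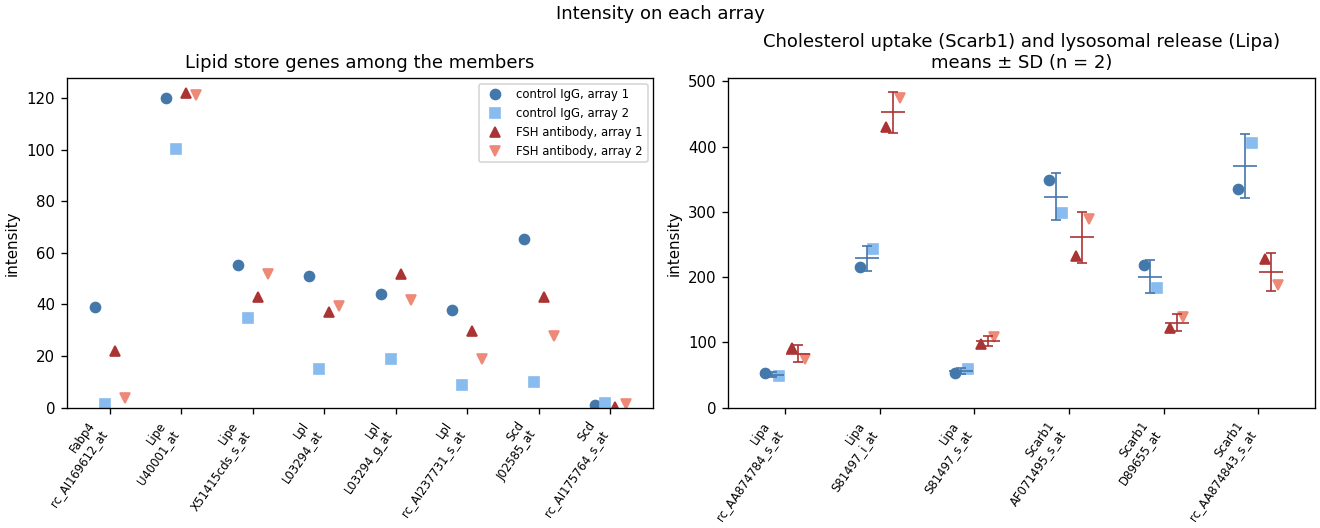
Intensity on each array, linear axes from 0. On the left are all probe sets of Fabp4, Lipe, Lpl and Scd, where control array 2 is the lowest in every column except the Scd probe set at or below 1.8; on the right are Lipa and Scarb1 with group means and SD (n = 2), where all Lipa probe sets are higher and all Scarb1 probe sets lower on both antibody arrays.

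Members were more often lower on control array 2 than on control array 1. Of the 69 member probe sets this held for 46 (66.7%), beside 57.0% of all tested probe sets. Between the antibody arrays, 37 (53.6%) were lower on array 2, beside 49.6%. Centred on each gene's mean, the median over the 40 tested genes came to 0.06 and −0.12 in the controls against 0.03 and 0.02 with the antibody, so the antibody arrays lay between the controls. The same held for sterol synthesis (0.10 and −0.09 against 0.04 and −0.04), for lipid synthesis (0.10 and −0.18 against 0.02 and 0.08) and for release, binding and activation (0.09 and −0.15 against 0.0078 and −0.05). In fatty acid oxidation both antibody arrays lay above both controls, with −0.06 and −0.10 against 0.08 and 0.15. Over all 3169 tested genes the antibody arrays also lay above the controls, by less, with 0.0096 and −0.04 against 0.03 and 0.01. The summed germ cell signal was highest on control array 2, but of its 11 markers 7 had their highest value there and 4, Adam2, Sycp1, Tnp1 and Tnp2, their lowest. The summed red cell signal was 3663 on control array 2 against 1998 to 2287 on the others. Their part in the members' values was not tested.

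**Figure D5:**
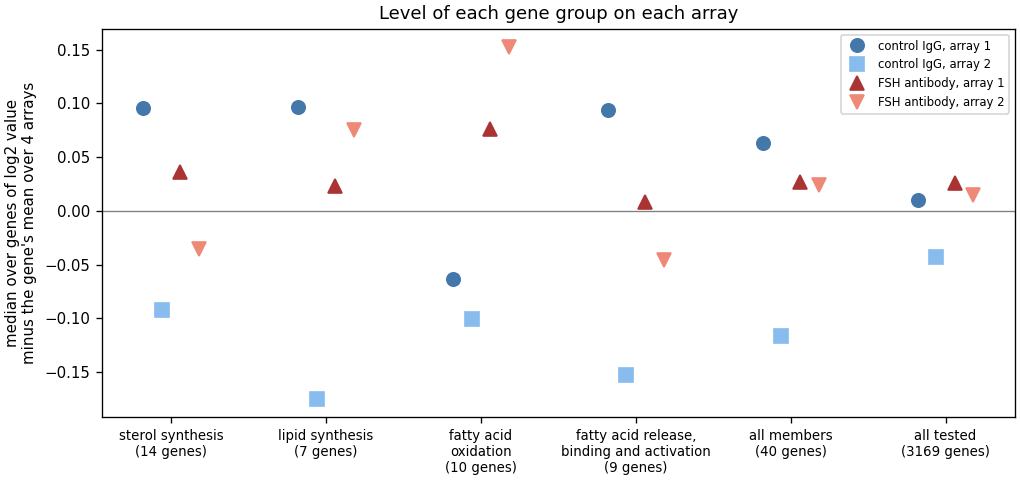
Median over the tested genes of each role of the log2 value minus the gene's mean over the 4 arrays, 1 point per array. Control array 2 is the lowest point in every column, and both antibody arrays lie above both control arrays in fatty acid oxidation and, by less, over all tested genes.

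Neighbouring genes of the same routes, from 3 lists of 80 genes of which 37 were tested, included Scarb1 and Lipa among genes of cholesterol supply outside synthesis. Scarb1, the receptor that takes up cholesterol from high-density lipoprotein, was lower on both antibody arrays on each of its 3 probe sets. On rc_AA874843_s_at it had 335.3 and 405.1 against 228.2 and 187.9 (−0.79 ± 0.18, adjusted p = 0.184), on D89655_at 219.0 and 182.7 against 121.7 and 139.2 (−0.56 ± 0.18, adjusted p = 0.463), and on AF071495_s_at −0.30 ± 0.18. Lipa, the lysosomal lipase that frees cholesterol from its esters, was higher on both antibody arrays on each of 3 probe sets, with 215.3 and 242.8 against 430.5 and 474.5 on the brightest (0.94 ± 0.17, adjusted p = 0.0703), and 0.72 and 0.57 on the others. Neither gene passed over all probe sets. Star, which moves cholesterol to the steroid enzymes and is no member here, had 75.9 and 86.2 against 25.5 and 12.8 on AB006007_s_at and was called (−1.49 ± 0.23, adjusted p = 0.0418). On its other probe set Star gave −1.38 ± 0.25 (adjusted p = 0.0653). Both Star probe sets entered the filter only through their control arrays, so this call adds no support. With no filter, and with quantile normalization, 0 probe sets were called. Within the list of sterol synthesis, uptake, storage and export, 9 of 26 genes were tested, with a median of 0.04, and 5 of 15 probe sets had an unadjusted p below 0.05, beside 8.11% of all tested, 3 higher (beside 3.98%) and 2 lower (beside 4.13%). These 5 were repeated probe sets of only 2 genes, Lipa and Scarb1.

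In the list of fatty acid and glyceride synthesis, 10 of 23 genes were tested, with a median of −0.13. In this list 2 genes (20.0%, beside 55.7% of all tested genes) had higher values and 8 lower. Elovl5, which elongates polyunsaturated fatty acids, had 930.2 and 787.4 against 486.4 and 746.8 (−0.49 ± 0.22, adjusted p = 0.61) and was its only probe set at an unadjusted p below 0.05. Both antibody arrays lay below both controls on 7 of 19 probe sets (36.8%, beside 15.5% of all tested) and above on 2 (10.5%, beside 21.9%). Me1 and Scd2 each gave more than 1 of the 7, so these are not independent. In the list of mitochondrial and peroxisomal oxidation, 18 of 31 genes were tested, with a median of 0.14. In this list 11 genes (61.1%, beside 55.7% of all tested genes) had higher values. On 10 of its 31 probe sets (32.3%, beside 21.9%) both antibody arrays lay above the controls and on 3 (9.68%, beside 15.5%) below. Acot7, an acyl-CoA thioesterase, had 262.6 and 170.5 against 303.0 and 363.4 on U49694_at (0.61 ± 0.22, adjusted p = 0.534), with 0.32 and −0.03 on its other probe sets. Of the 65 tested probe sets of these lists, 0 passed an adjusted p of 0.05 and 7 had an unadjusted p below 0.05 (10.8%, beside 8.11%).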

How the data were processed

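The deposited table holds linear intensities, 1 per Affymetrix probe set and array, from 4 arrays of biotin-labelled testis RNA. The sources used here name no software, background correction or build. Trimmed of 2% at each end, the deposited intensities averaged 125 on every array, so no normalization was added. No detection calls were used. Members were matched on the symbols that the platform annotation gives, in which 7018 of 8799 probe sets had 1 symbol, 308 several and 1473 none. Other lists and gene counts use these symbols updated through Entrez identifiers with RefSeq's table (GRCr8).

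Values were analysed as log2(intensity + 16). The 59 control probe sets and those below the 40th percentile of the mean log2 value were left out, and the remaining 5252 entered 1 two-sided test (lmFit, then eBayes with trend; limma 3.58.1 under R 4.3.3). P-values were adjusted by Benjamini-Hochberg over the 5252. The function was tested on simulated data. List medians use the brightest probe set per gene. Members, roles, lists and tests were chosen with earlier results of these data known. Values on every array are given for members with a change of at least 1.5-fold and no overlap, the 4 genes of smallest p and the 2 brightest in each role, genes whose tested probe sets differ in sign by at least 1.2-fold on both sides, and, for completeness, further members outside that rule. Of the neighbouring genes, those with an unadjusted p below 0.05 are named.

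Alternatives were quantile normalization, median centring, adding 1 or 64 in place of 16, dropping the filter or raising it to the 60th percentile, dropping the trend, fitting without each array, a replicate block, averaging a gene's probe sets, and calling by unadjusted p with 1.5-fold.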

Additional observations from a re-analysis of the deposited data

How the results depend on the processing

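Against 0 called member probe sets, 1 was called with the 60th percentile filter (Gpd1, which entered it only through its control arrays). With the replicate block 2 were called (Gpd1, adjusted p = 0.0164, and Gpam U36773_at, 0.0334), and by an unadjusted p with 1.5-fold 3. Against 14 called over all probe sets, 0 were called with quantile normalization, 4 with median centring, 0 with no filter, 39 with the replicate block, 0 to 153 with 1 array left out and 180 by an unadjusted p with 1.5-fold. Where 0 were called, limma gave 421 at an unadjusted p below 0.05 with quantile normalization and 702 with no filter, 370 without control array 1 and 270 without control array 2; 153 were called without antibody array 1 and 94 without antibody array 2. The deviations of same-numbered arrays correlated at r = 0.0039 over 5252 probe sets and 0.12 over the 69 of the members. With 2 numbers and no label that ties them to a shared animal or day, they are taken to share only a number. The replicate block leaves 1 residual degree of freedom on the 4 arrays, and no support is drawn from its calls. Against 5 members at an unadjusted p below 0.05 there were 8 with no filter and 4 to 9 with other settings, 5 to 9 with 1 array left out. With no filter all 84 member probe sets entered in place of 69, so the 8 are out of more probe sets. Over all probe sets, limma gave 702 of 8740 at an unadjusted p below 0.05 with no filter, beside 426 of 5252 in the main fit. With 1 array left out the lone array of its group is assumed to vary like the other group, and 1 residual degree of freedom is left. The member counts from such fits are therefore not weighed against those over all probe sets.

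List medians with 1 array left out ranged from −0.0805 to 0.12 for sterol synthesis, from −0.0844 to 0.25 for lipid synthesis, from 0.13 to 0.23 for fatty acid oxidation and from −0.14 to 0.0903 for release, binding and activation. The oxidation median was 0.14 with median centring and 0.14 with a constant of 64, and that of release, binding and activation was 0.0050 when a gene's probe sets were averaged. Among the 25 member probe sets named by rule, 18 kept their direction in every setting. Fdft1 M95591_g_at turned to −0.0099 with median centring. With 1 array left out, the ranges of those that turned were −0.30 to 0.38 for Fdft1 M95591_g_at, −0.18 to 0.10 for Fdft1 rc_H33426_at, −0.12 to 0.10 for Msmo1 rc_AI172293_at, −0.0203 to 0.69 for Fasn M76767_s_at, −0.0218 to 0.29 for Hadha D16478_at, −0.26 to 0.0916 for Hadhb D16479_at and −0.66 to 0.0659 for Acsl1 D90109_at. The cause of these changes was not tested. Without detection calls, signal over background is not known.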
